A study of Homo sapiens with 2 samples.

Results

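Nuclear genes of oxidative phosphorylation were followed in A549 cells, a human lung adenocarcinoma line of epithelial origin, here carrying a red fluorescent (RFP) reporter of vimentin. Members were chosen by gene symbol. They are the NDUF genes of complex I, the SDH genes of complex II, the UQCR genes with CYC1 of complex III and the electron carrier CYCS, the broadly expressed COX subunits of complex IV, and the ATP5 genes of complex V. The rule took 84 of 57736 gene entries, which carry 80 symbols. The study compared 1 AmpliSeq Transcriptome library from cells labelled as a TGF-beta induced epithelial to mesenchymal transition (EMT) with 1 library from cells given no treatment. Both groups are labelled wild type, and each library was made from 10 ng of total RNA. The sources give neither dose nor duration of TGF-beta. With 1 library per group there is no replicate check and no test of the treatment. Intervals below are exact 95% intervals that cover the counting error of reads only.

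Oxidative phosphorylation passes electrons from NADH and succinate along complexes I to IV of the inner mitochondrial membrane to oxygen, and the proton gradient built on the way drives ATP synthesis by complex V. Most subunits are encoded in the nucleus and imported, while a core set is encoded by mitochondrial DNA. Factors such as NRF1, GABP and YY1 are known regulators of many of the nuclear genes.

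The members were read at low depth. After rounding, the libraries held 597133 (TGF-beta) and 674784 (untreated) counts, and the 10 genes with the most counts took 43.6% and 32.6% of them. Below, counts are written as the library labelled TGF-beta against the untreated library. VIM, a mesenchymal marker, had 56 counts against 452, and TGFBI, a gene known to be induced by TGF-beta, had 15 against 407, so that these genes go against the label, while the collagen gene COL1A1 had 356 against 196. GAPDH, a gene of glycolysis read beside them, had 115 against 2764. Each direction given below rests on the TGF-beta label. Of 14 markers of A549 epithelium, 12 were detected under TGF-beta, where KRT18 and AKR1B10 were at 0, and 14 without treatment, at summed levels of 3444 and 3063 CPM (counts scaled to library size). Fibroblast markers summed to 726 and 360 CPM, mostly from COL1A1 (630 and 275 CPM), with COL3A1 at 0 under TGF-beta and LUM at 0 in both. Leukocyte markers summed to 17.7 and 49.1 CPM (LYZ at 0 in both), and endothelial markers to 24.8 and 16.8 CPM over the 3 of 4 that were matched. The part of these differences in the results was not tested. In bulk RNA, fewer cells with a transcript and less transcript per cell cannot be told apart.

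Promoter sequences give a view of what the members share beyond their names. Letters of known regulator motifs were searched on both strands in 300 bases around each gene start (RefSeq, GRCh38.p14), for 62 members with an entry and 27305 genes in all. The NRF1 motif was found in 15 members (24.2%) and in 6.98% of all genes. The ETS motif CCGGAAGT, which GABP can bind, was found in 11 members (17.7%) and in 4.95% of all genes, and the YY1 motif in 4 members (6.45%) and in 1.04%. Any of the motifs was found in 26 members (41.9%) and in 12.0% of all genes. A promoter can hold several of them. A match is a description of letters and not a bound site. The 120 bases before the start are printed for 6 members, some with far fewer counts under TGF-beta and some with like counts in both libraries, with motifs that lie wholly inside the stretch in capitals (the NRF1 motif in NDUFA11, SDHD and, on the opposite strand, NDUFB4, and the ETS motif in COX5B and, on the opposite strand, SDHD). NDUFB4 (chr3:120596216-120596335, plus strand) and COX5B (chr2:97645942-97646061, plus strand) had 3 counts against 67 and 0 against 58. NDUFA11 (chr19:5903791-5903910, minus strand) and SDHD (chr11:112086753-112086872, plus strand) had 71 against 65 and 9 against 9. COX6B1 (chr19:35648203-35648322, plus strand) and COX4I1 (chr16:85799575-85799694, plus strand) had the lowest and the highest ratio of complex IV, and neither stretch holds a motif.
NDUFB4: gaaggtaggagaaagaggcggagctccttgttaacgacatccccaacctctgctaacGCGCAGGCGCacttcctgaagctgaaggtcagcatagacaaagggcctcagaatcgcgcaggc
COX5B: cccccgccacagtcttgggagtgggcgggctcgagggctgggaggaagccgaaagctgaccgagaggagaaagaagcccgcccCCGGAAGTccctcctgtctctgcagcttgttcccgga
NDUFA11: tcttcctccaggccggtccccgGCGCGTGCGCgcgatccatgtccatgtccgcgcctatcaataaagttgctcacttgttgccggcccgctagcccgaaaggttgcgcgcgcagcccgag
SDHD: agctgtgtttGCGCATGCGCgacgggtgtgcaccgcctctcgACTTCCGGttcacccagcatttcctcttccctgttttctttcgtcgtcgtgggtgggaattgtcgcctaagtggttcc
COX6B1: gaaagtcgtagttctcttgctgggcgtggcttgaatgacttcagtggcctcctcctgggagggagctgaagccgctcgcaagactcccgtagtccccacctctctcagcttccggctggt
COX4I1: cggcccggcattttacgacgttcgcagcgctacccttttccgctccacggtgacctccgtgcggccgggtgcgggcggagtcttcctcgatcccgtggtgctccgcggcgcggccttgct

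Members with and without a motif were mostly lower. Of 14 members with the NRF1 motif that passed the filter on low counts, 9 were at least 2-fold lower and none was higher. Their log2 ratios (TGF-beta over untreated) ran from -4.15 to 0.46 around a median of -1.42. Members with the ETS motif (9, of which 6 were lower) had a median of -2.30, and the 4 with the YY1 motif, all lower, of -1.99. The 30 members with none of the motifs had a median of -2.36, with 18 lower and 2 higher. Over all genes that passed the filter, 26.7% were lower and 22.0% higher by the same rule.

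Most nuclear oxidative phosphorylation (OXPHOS) genes that could be compared had fewer counts under TGF-beta. The filter asked for 5 CPM in either library, and 68 of the 84 entries passed it. Of these 68, 46 were at least 2-fold lower under TGF-beta and 3 were higher by that much. Over all 15401 genes that passed, 26.7% were lower and 22.0% higher by the same rule. The median log2 ratio was -1.99 for the members, with quartiles of -3.04 and -0.66, against 0.01 for all genes. A count of 0 was set to a floor of 3 counts, so that ratios of such genes are bounds against that floor, without the counting error of the other library. This applied to 9 members at 0 under TGF-beta and 2 at 0 without treatment. Summed over all members, 560 counts stood against 2134, or 0.0938% (0.0862% to 0.102%) and 0.316% (0.303% to 0.330%) of the libraries, and the log2 ratio of the sums was -1.59 (-1.73 to -1.46). The counting interval lay wholly below equality for 38 members and wholly above it for 2, COX4I1 and NDUFS6. Among all genes these shares were 16.8% and 9.99%. The ratio of COX4I1 differed between regions of the gene, as given below.

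The lower share was also read within bands of like level. Of 25 members with a mean of 20 to 100 CPM over the libraries, 20 were at least 2-fold lower, against 30.7% of all genes in that band. Between 5 and 20 CPM it was 23 of 31 members, against 30.4% of genes. Only 4 members reached a mean of 100 CPM or more, and 2 of them, COX6B1 and ATP5G2, were lower, against 26.1% of genes. Of the 8 members that passed with a mean under 5 CPM, 1 was lower and 2 were higher, against 13.9% and 26.4% of genes, so that these members stood near the background.

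**Figure D1:**
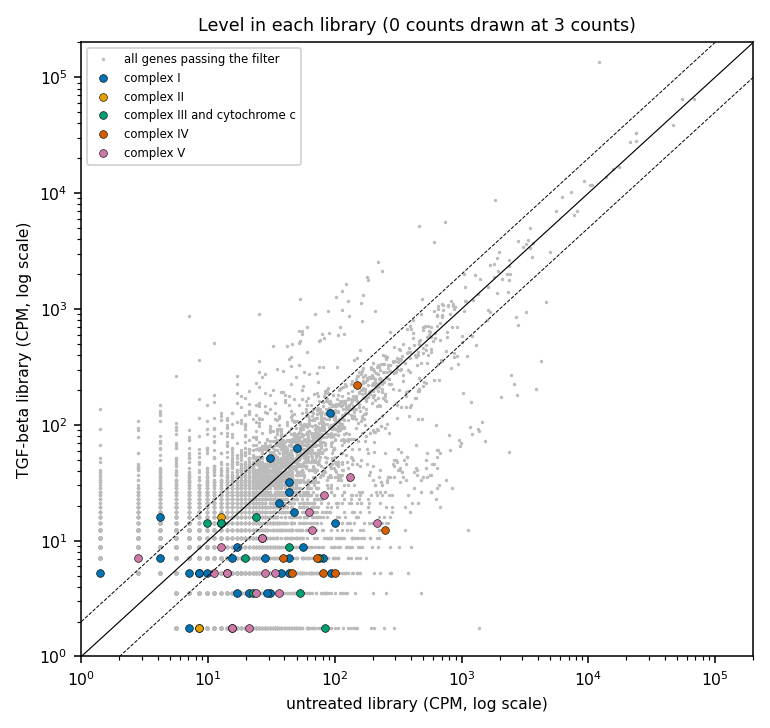
Level of each gene in the untreated library (x axis, CPM, log scale) and in the TGF-beta library (y axis, CPM, log scale), with 0 counts drawn at 3 counts, the solid line at equality and dashed lines at 2-fold. Coloured points are OXPHOS members by complex and grey points are all genes that passed the filter; 46 of 68 members lie on or below the lower dashed line.

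Complex I, the NADH dehydrogenase, held members on both sides. Of its 31 members that passed, 16 were at least 2-fold lower and 2 higher, beside 26.7% and 22.0% of all genes. Their median log2 ratio was -1.12, and that of the sums was -1.15 (-1.36 to -0.95; 264 counts against 740). The supernumerary subunits, which surround the core, summed to 182 against 607, a log2 ratio of -1.40 (-1.65 to -1.16).

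Core subunits of complex I carry the flavin and the iron-sulfur clusters, and 3 of those near the ubiquinone site had intervals that span equality. NDUFS7 (hg19 chr19:1383526-1395583, plus strand), which carries the last iron-sulfur cluster before ubiquinone, had 29 counts against 22, a log2 ratio of 0.73 (-0.12 to 1.60). NDUFS8 (hg19 chr11:67798084-67804111, plus strand), another iron-sulfur subunit, had 36 counts in each. Equal counts give a log2 ratio of 0.34 after scaling, and the interval of NDUFS8 ran from -0.37 to 1.04. NDUFS3 had 12 against 26, with an interval that also spans equality (-0.78, -1.90 to 0.26). The N module, which oxidises NADH, was barely read. NDUFV1 had 5 counts against 12, and NDUFS1 and NDUFV2 had 0 against 3 each and did not pass the filter.

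The supernumerary subunits of complex I held the lowest ratios of the complex. NDUFB4 (hg19 chr3:120315156-120321347, plus strand) had 3 counts against 67, or 5.31 and 94.0 CPM, and was 17.7-fold lower (log2 ratio -4.15, -6.46 to -2.54). NDUFB9 had 4 counts against 58 (-3.52, -5.45 to -2.09). NDUFB11 had 8 counts against 71 (-2.81, -4.08 to -1.76). All of these belong to the membrane arm, and all 3 lay more than 2-fold lower over their whole interval.

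Other NDUF genes of this kind lay in the same direction with fewer counts. NDUFA2 (2 against 22), NDUFB7 (2 against 21), NDUFA1 (5 against 40), NDUFB8 (4 against 31), NDUFA6 (2 against 15) and NDUFS4 (4 against 20) had log2 ratios from -3.12 to -1.99 and intervals below equality. NDUFA4, which is now known as a subunit of complex IV although its name places it here, had 2 counts against 12 (-2.25, -5.45 to -0.08). NDUFB2 had 0 against 27 and was at least 7.13-fold lower against the floor, with an interval that ends at -2.44, while the entry of NDUFB2-AS1, on the opposite strand, had 62 against 10. The treatment of strand in the counting is not known, so reads in the stretch these genes share cannot be told apart. NDUFB2 exon regions outside the antisense entry held 0.25 counts against 23.1, and the region inside it 0 against 3.12.

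NDUFA3 had 10 against 34 (-1.43, -2.61 to -0.38). The other supernumerary subunits below equality were thinly read: NDUFA7 (1 against 6), NDUFA9 (1 against 5), NDUFA10 (4 against 11), NDUFS5 (0 against 7), NDUFA8 and NDUFA12 (0 against 6 each) and NDUFB1 (0 against 5). Of these, NDUFS5 alone had an interval below equality.

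Some supernumerary subunits were not lower. NDUFA11 (hg19 chr19:5891287-5904017, minus strand), a membrane arm subunit, had 71 counts against 65 (126 and 91.2 CPM, log2 ratio 0.46, -0.04 to 0.97). NDUFS6, a small zinc-binding subunit of the peripheral arm, had 9 counts against 0 and was at least 3.79-fold higher against the floor of 3 counts. With counting error, its interval starts at a lower log2 ratio of 1.32. NDUFV3 had 3 counts against 1, both at or under the floor, and gives no ratio although the tally holds it among the higher genes. NDUFC2 had 4 against 0, with an interval that reaches below equality (from -0.26). NDUFB10 (18 against 31), NDUFA13 (15 against 31) and NDUFA5 (8 against 9) had intervals that span equality. For these 3 genes the depth does not resolve a difference.

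**Figure D2:**
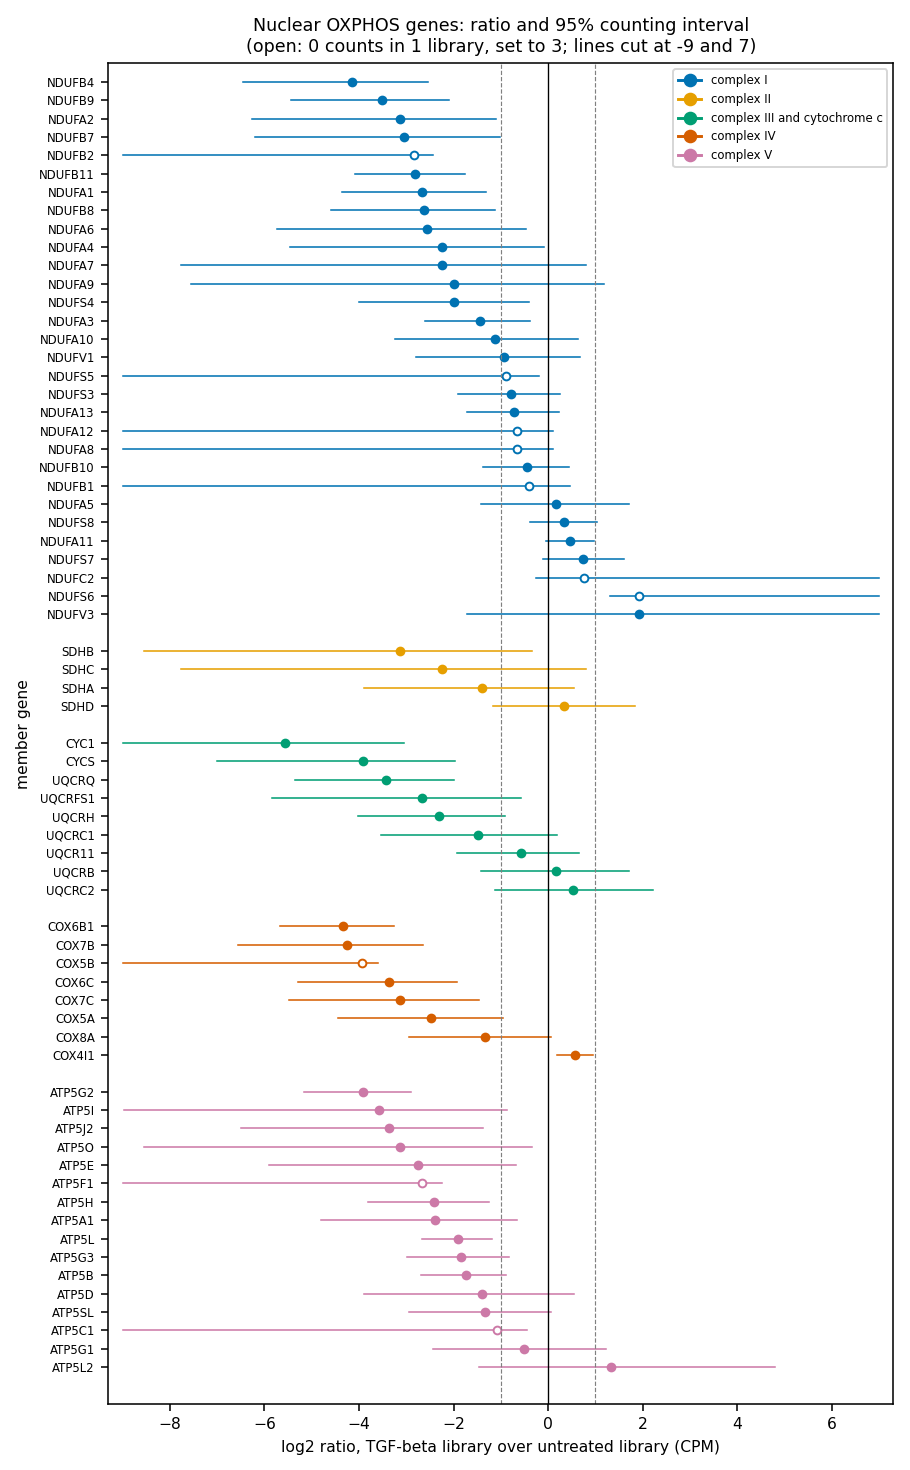
Log2 ratio of CPM, TGF-beta library over untreated library (x axis), for 67 of the 68 members that passed the filter (y axis), grouped by complex. Lines are 95% counting intervals, cut at -9 and 7, and open points had 0 counts in 1 library. The intervals of COX4I1 and NDUFS6 lie wholly above 0, and those of COX6B1, COX5B and CYC1 are among those wholly below it.

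Complex II, succinate dehydrogenase, which also serves the citric acid cycle, was read with 14 counts against 36. The log2 ratio of its sums was -1.03 (-2.03 to -0.10). SDHB, the iron-sulfur subunit, had 1 count against 11 (-3.12, -8.55 to -0.34). SDHA, the flavoprotein, had 3 against 10 and SDHC, a membrane anchor, had 1 against 6, both with intervals that span equality. SDHD, the other anchor, had 9 counts in each library, and without SDHD the log2 ratio of the sums was -2.10. Reads of SDHA can be shared with its copies: SDHAP2 had 9 counts against 1, and with pseudogene counts added to their parent genes, an alternative chosen after seeing the data, the log2 ratio of complex II was -0.55.

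Complex III and cytochrome c, which carry electrons from ubiquinol to complex IV, were lower in sum (43 counts against 249, log2 ratio -2.20, -2.70 to -1.73). Of 9 members that passed, 6 were at least 2-fold lower and 0 higher, beside 26.7% and 22.0% of all genes. CYC1, the cytochrome c1 subunit, had 1 count against 60, the lowest ratio of any member (-5.57, -10.90 to -3.04). CYCS, cytochrome c itself, had 2 against 38 (-3.91, -7.01 to -1.96). UQCRQ, a small supernumerary subunit, had 4 against 54 (-3.42, -5.35 to -1.98). All 3 were past 2-fold lower over their whole intervals, and these intervals overlap. UQCRFS1, the Rieske iron-sulfur protein, had 2 against 16 (-2.66, -5.83 to -0.58), and the hinge protein UQCRH had 5 against 31 (-2.30, -4.02 to -0.92). The core protein UQCRC2 (8 against 7), UQCRC1 (4 against 14), UQCRB (8 against 9) and UQCR11 (9 against 17) had intervals that span equality.

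Complex IV, cytochrome c oxidase, held both the member with the most counts under TGF-beta and some of the lowest ratios. COX6B1 (hg19 chr19:36139125-36149763, plus strand), which faces the intermembrane space, had 7 counts against 178, or 12.4 and 249.6 CPM, and was 20.1-fold lower (log2 ratio -4.33, -5.67 to -3.26). COX4I1 (hg19 chr16:85832239-85840650, plus strand), the main isoform of a regulatory subunit, had 125 counts against 106, or 221 and 149 CPM, a log2 ratio of 0.57 (0.19 to 0.96). With DESeq2 size factors the COX4I1 ratio was 0.35 and its interval (-0.03 to 0.74) reached equality. COX4I1 held 82.2% of complex IV counts under TGF-beta and 19.4% without treatment, and COX6B1 4.61% and 32.5%.

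The remaining complex IV members that passed were all at least 2-fold lower, beside 26.7% of all genes. COX7B had 3 counts against 72 (-4.25, -6.56 to -2.64). COX5B, the zinc-binding subunit, had 0 against 58 and was at least 15.3-fold lower against the floor, with an interval that ends at -3.59. COX6C (4 against 52), COX7C (3 against 33) and COX5A (4 against 28) had log2 ratios of -3.36, -3.12 and -2.47, and COX8A (6 against 19) had -1.33 with an interval that reaches 0.05. Summed over the complex the log2 ratio was -1.51 (-1.78 to -1.25; 152 counts against 547), and without COX4I1 it was -3.69 (-4.31 to -3.13; 27 against 441). COX6A1 itself was listed at 0 in both libraries, while the entry of its copy COX6A1P2 had 7 counts against 96 (-3.44, -4.79 to -2.34).

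Complex V, the ATP synthase, was lower in nearly every subunit that passed. Of 16 members that passed, 14 were at least 2-fold lower, beside 26.7% of all genes. The log2 ratio of the sums was -2.36 (-2.70 to -2.03, 87 counts against 562). The 3 ATP5G genes encode the same mature protein of the rotating c ring. ATP5G2 (hg19 chr12:54026510-54071192, minus strand) had 8 counts against 153 (14.2 and 214.6 CPM) and was 15.2-fold lower (log2 ratio -3.92, -5.16 to -2.91). ATP5G3 had 10 against 45 (-1.83, -2.99 to -0.82) and ATP5G1 had 5 against 9, with an interval that spans equality. The intervals of ATP5G2 and ATP5G3 overlap only between -2.99 and -2.91.

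The catalytic head and its stalks followed the same direction. In the F1 head ATP5B, the catalytic beta subunit, had 14 counts against 59 (-1.74, -2.70 to -0.88) and ATP5A1, the alpha subunit, had 3 against 20 (-2.40, -4.79 to -0.65). Of the smaller F1 subunits, ATP5E had 2 against 17, ATP5D 3 against 10 and ATP5C1 0 against 8, and the interval of ATP5D spans equality. The peripheral stalk, which holds the head still, summed to 8 against 82 (-3.02, -4.28 to -1.98), with ATP5F1 at 0 against 24, ATP5H at 7 against 47 and ATP5O at 1 against 11. Among the small membrane subunits ATP5L had 20 against 94 (-1.90, -2.67 to -1.19), ATP5J2 had 2 against 26 and ATP5I had 1 against 15. The only complex V entry past 2-fold higher was ATP5L2 (4 against 2, with an interval that spans equality), an ATP5L-like gene taken by its symbol, as were ATP5S, ATP5SL and the pseudogene ATP5J2LP. Without these 4 entries, and with NDUFA4 in complex IV, the log2 ratio of complex V was -2.49.

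**Figure D3:**
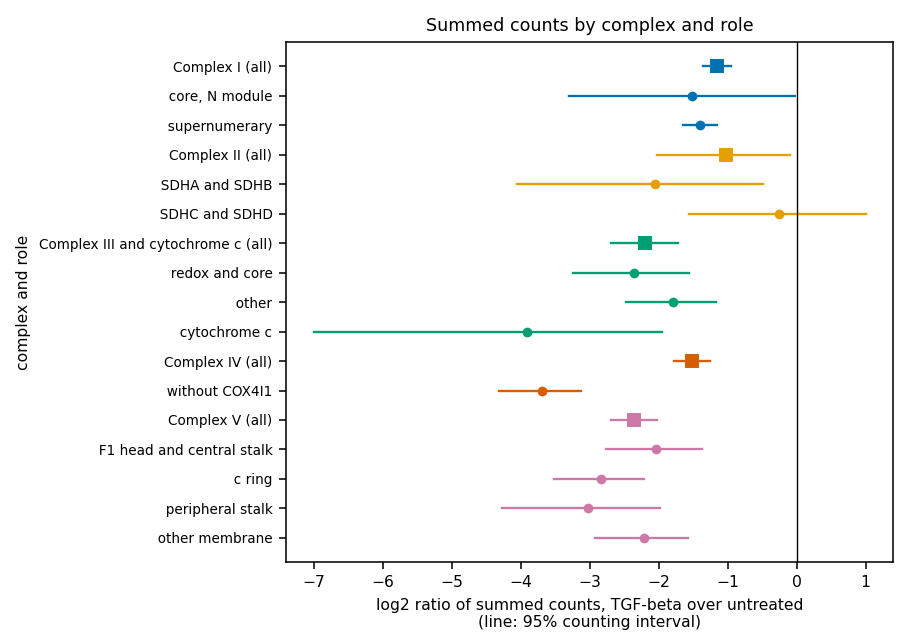
Log2 ratio of summed counts, TGF-beta over untreated (x axis), with 95% counting intervals, for each complex (squares) and for groups of subunits by role (circles). Complexes lie between -2.36 (complex V) and -1.03 (complex II); the anchors SDHC and SDHD (-0.25) have an interval that reaches 0, and complex IV without COX4I1 lies at -3.69.

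Members of complexes I, III and IV differed among themselves by more than their counting intervals. Against the summed ratio of their own complex, 5 complex I intervals lay above it (NDUFS8, NDUFA11, NDUFS7, NDUFC2 and NDUFS6) and 6 below it, among them NDUFB4 and NDUFB9. In complex III the intervals of UQCR11, UQCRB and UQCRC2 lay above and that of CYC1 below. In complex IV that of COX4I1 lay above and those of COX6B1, COX7B, COX5B and COX6C below. In complex V 14 of 16 intervals spanned the summed ratio, with ATP5G2 below it and ATP5L2, which matched by symbol only, above it. In complex II 4 of 4 spanned it. Intervals were not adjusted for the number of members, and they treat reads as independent.

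The position of the counts along the genes also differed between the libraries. Exons of a gene that overlap were joined into exon regions, numbered from the 5′ end, and the deposited exon entries were summed in each; these sums need not equal the gene's count. In COX4I1 the third region (hg19 chr16:85834790-85834884) held 108 counts against 44.4, and the last region (chr16:85836663-85840650) held 2.96 against 60.2. The log2 ratio was therefore 1.63 (1.11 to 2.17) in the third region and -3.99 (-6.30 to -2.37) in the last. The gene ratio of COX4I1 thus joins regions that go opposite ways. Which of them follows the level of the transcript was not tested.

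Regions of some other members also differed from each other. In NDUFA11 region 5 held 67.2 counts against 49, while region 1 held 1 against 20.9. In NDUFS8 region 7 held 31 against 15.7 and the last region 3 against 16.3. ATP5L had 20 of 20 TGF-beta counts in region 1 (40.5 in the untreated library) and none in regions 4 and 5, which held 34.4 and 18.9 untreated counts. NDUFS7 differed from these, with 69.4% and 73.9% of its counts in region 5. Summed over COX4I1, NDUFA11, NDUFS8 and NDUFS7, the region of each with the most counts held 227 against 126 (log2 ratio 1.19, 0.86 to 1.51). The other regions of these 4 genes held 35.1 against 122 (-1.47, -2.05 to -0.91). Over 64 members, these 4 included, the log2 ratios of the same sums were -1.49 and -2.01. Of 378 TGF-beta counts in the leading regions of the 64 members, these 4 genes held 227. The regions were chosen on the same counts, and the 4 genes with their ratios known. These sums therefore do not show how the other members behave. The difference between leading and other regions was not tested. In COX6B1 and ATP5G2, both far lower, the split over regions was close in the 2 libraries, with 51.4% and 53.0% of COX6B1 counts in region 4 and 79.4% and 73.6% of ATP5G2 counts in region 4. Other lower members did differ between regions. In NDUFB11 region 1 held 7.41 counts against 4.13 and region 3 held 1.28 against 50.6. COX5A had its 4 TGF-beta counts in region 1, which held 0 untreated counts.

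**Figure D4:**
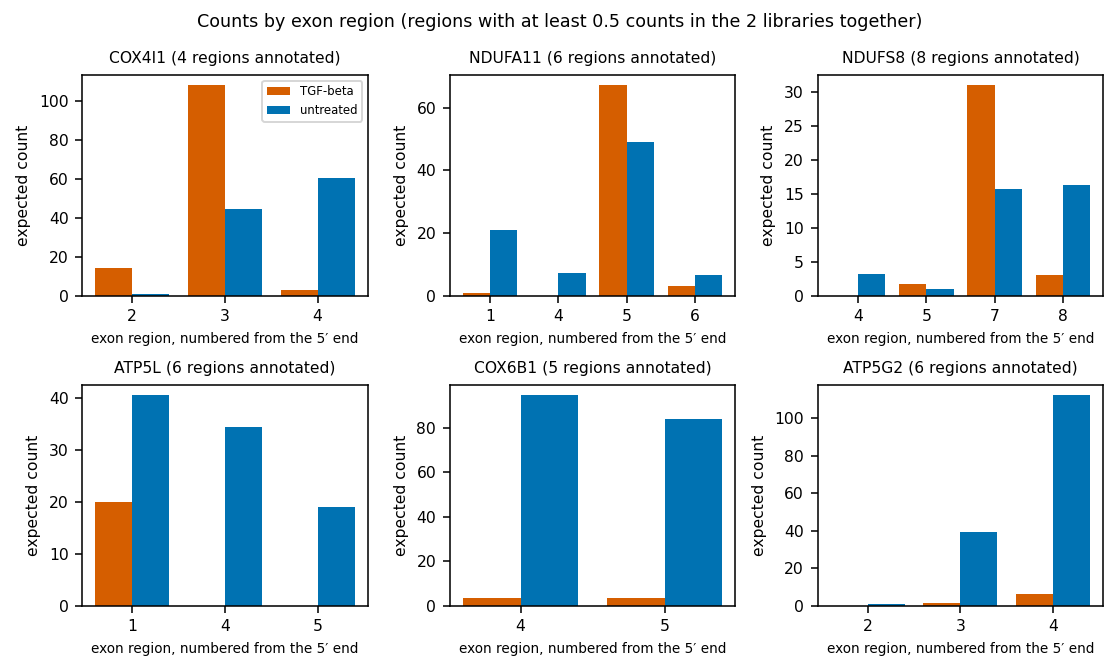
Expected counts (y axis) in each exon region with at least 0.5 counts in the libraries together (x axis, numbered from the 5′ end) for 6 members, TGF-beta in orange and untreated in blue. Region 3 of COX4I1 (108 against 44.4), region 5 of NDUFA11 and region 7 of NDUFS8 are higher in the TGF-beta library, while the last region of COX4I1 and the first of NDUFA11 are lower. Both regions of COX6B1 are lower.

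Most well-read regions of the members were lower. Of 65 exon regions in 42 members with 10 or more counts in either library, 46 were at least 4-fold lower, 11 were 2-fold to 4-fold lower, 5 lay between and 3 were at least 2-fold higher. Over all 6282 such regions of genes that passed, 27.8% were at least 4-fold lower, 18.0% were 2-fold to 4-fold lower and 18.6% were at least 2-fold higher. The 8 regions that were not 2-fold lower belonged to COX4I1, which had 2 of them, NDUFS8, NDUFS7, NDUFA11, NDUFB10, NDUFA13 and ATP5L. Regions divide the reads of their gene, so that the 65 regions are not evidence separate from the ratios of the 42 members. The positions of the PCR targets within the genes were not used. Among 11 members with several annotated regions and 10 or more counts in each library, the fullest region held a median of 86.4% of the counts under TGF-beta and 56.1% without treatment, and held the larger share under TGF-beta in 8 of them. Over 2822 genes of this kind the medians were 83.9% and 80.3%, and the share was larger under TGF-beta in 1417. The part of this concentration in the ratios of single members was not tested.

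Other genes of the pathway were read from lists, beside 26.7% of all genes at least 2-fold lower and 22.0% higher. Nuclear subunits that the symbol rule does not take had 4 of 5 passing genes at least 2-fold lower, with C14orf2 at 1 count against 50 (-5.31, -10.64 to -2.76) and the acyl carrier protein NDUFAB1 at 2 against 23 (-3.19, -6.32 to -1.17), and USMG5 at 3 against 21, while COX7A2L had 11 against 9. Isoforms restricted to certain tissues were barely read, with 7 counts against 12 over 7 genes, and 0 of the 2 that passed were past 2-fold either way. The 13 subunits encoded by mitochondrial DNA were not analysed here.

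Assembly factors, which build the complexes without staying in them, had medians closer to equality than the subunits, and this difference was not tested. Over all genes that passed, 26.7% were lower and 22.0% higher. For complex I, 2 of 9 were lower and 1 higher around a median of -0.57, with NDUFAF6 at 25 counts against 22, NUBPL at 8 against 15 and NDUFAF3 at 9 against 13. The higher gene was NDUFAF1, at 3 against 1, which gives no ratio. For complexes II and III it was 2 of 7 lower and 1 higher (median -0.40), with SDHAF1 at 15 against 17, ACN9 at 2 against 25, TTC19 at 10 against 7 and the higher gene UQCC1 at 5 against 2. For complex IV it was 7 of 16 lower and 0 higher (median -0.94), with the copper chaperone COX17 at 0 against 36, at least 9.51-fold lower against the floor, with an interval that ends at -2.88. COX15 and SURF1 had 24 against 49 and 18 against 38, with intervals that span equality. Of the 3 complex V factors only ATPAF2 passed, at 2 against 4.

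Regulators of mitochondrial biogenesis were at low counts. Of 11 that passed, 4 were at least 2-fold lower and none was higher, around a median of -0.89, which is 36.4% lower beside 26.7% of all genes. ESRRA, a nuclear receptor of the programme, had 5 counts against 27 (-2.10, -3.83 to -0.70), YY1 had 23 against 25, POLRMT had 12 against 23 and TFAM had 3 against 8. NRF1 had 1 count in each library and PPARGC1A had 0 against 2, which is too few to compare.

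Carriers that supply the ATP synthase were lower in each case that passed. Among all genes that passed, 26.7% were at least 2-fold lower and 22.0% higher. The 6 passing genes of ADP/ATP, phosphate and outer membrane transport had a median log2 ratio of -3.54, with the ADP/ATP carriers SLC25A5 at 10 counts against 132 (-3.39, -4.48 to -2.46) and SLC25A6 at 6 against 98, and the phosphate carrier SLC25A3 at 1 against 48. Pyruvate dehydrogenase and the citric acid cycle had 8 of 12 lower and 2 higher (median -1.37), with IDH3B at 224 against 662 (-1.23, -1.45 to -1.01) DLST at 68 against 69 and MDH2 at 19 against 62. The 2 higher genes were PDHB (10 against 6) and IDH3A (4 against 1), both with intervals that span equality.

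Related families are given for comparison, beside 26.7% of all genes lower and 22.0% higher. Glycolytic enzymes had 13 of 17 lower, 1 higher (PFKM, 12 against 4) and a median of -2.66. Mitochondrial ribosomal protein genes had 38 of 55 lower, 3 higher (MRPL55, MRPS22 and MRPL52) and a median of -1.83, but a log2 ratio of the sums of 0.01, with MRPL55 alone at 492 counts against 93. Cytosolic ribosomal protein genes had 61 of 73 lower, 3 higher (RPS24, RPS29 and RPL10L) and a median of -3.26. No test of the differences between these families is possible with 1 library per group.

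**Figure D5:**
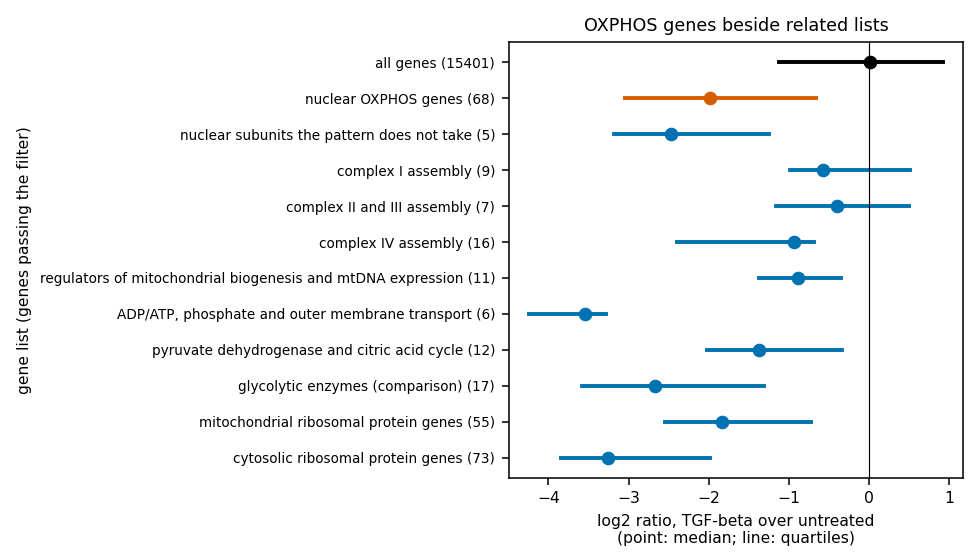
Median (points) and quartiles (lines) of the log2 ratio, TGF-beta over untreated (x axis), over the genes of each list that passed the filter (y axis, their number in brackets). The OXPHOS members (median -1.99) lie lower than all genes (0.01) and the assembly factor lists (-0.94 to -0.40), near mitochondrial ribosomal protein genes (-1.83) and above cytosolic ribosomal protein genes (-3.26) and transport genes (-3.54).

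The entries without enough counts complete the set. Of the 16 that did not pass, 8 were at 0 in both libraries. These were ATP5J, COX6A1, NDUFB3, ATP5J2LP and the second entries of NDUFA7, NDUFB8, SDHD and UQCR11, whose counts all stood on the other of their 2 entries. Each counted entry is longer than the entry at 0. For UQCR11, exon region 9 (hg19 chr19:1581091-1581268) lies outside the entry at 0 and held 0.73 counts against 7. For SDHD the regions with counts lie inside the span of its entry at 0. The others, NDUFB5, NDUFB6, NDUFC1, NDUFS1, NDUFV2, UQCR10, COX7A2 and ATP5S, had at most 3 counts in a library. Among the 68 that passed, 33 overlap another gene entry with counts.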

How the data were processed

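AmpliSeq Transcriptome libraries, which read targeted genes by multiplex PCR, were compared for 1 TGF-beta and 1 untreated sample. The table the authors deposited holds expected counts (estimated, not normalized, as their fractional values show) for gene, transcript and exon entries. Of gene values above 0, 53.1% and 45.3% were whole within 1e-06. Per the submitters' processing notes the build was hg19, and DESeq is listed there with no role. Aligner, counting program and use of strand are not stated. Reads from PCR that lack molecular identifiers are not independent molecules. Intervals and floors therefore cover the counting error of reads only, and the intervals can be too narrow for molecules.

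Gene counts were rounded and scaled by TMM (edgeR 4.0.16 in R 4.3.3, factors 0.946 and 1.06). Genes needed 5 CPM in either library. A count of 0 was set to 3 counts (5.31 and 4.21 CPM) and 2-fold was the size rule. Intervals are exact Clopper-Pearson intervals at 95%, for ratios conditional on the summed count (scipy 1.17.1). The calculation was tested on simulated data. Alternatives were DESeq2 1.42.0 size factors, other scalings, filters and floors, and pseudogene counts added, the last chosen after seeing the data.

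By rule, the text names in each complex up to 5 members with the largest summed count, the smallest and largest ratio at 20 CPM or more, and each member at least 2-fold higher, and of each pathway list up to 3 genes with the largest summed count and those past 2-fold in the rarer direction. Other members are given by their counts, except 1 that is not reported here by itself. Of the 3 comparison families and of tissue-restricted isoforms, genes with the largest counts are not named, apart from GAPDH. GAPDH, COX7A2L, TFAM, NRF1 and PPARGC1A were named after their values were seen. Members, lists, roles and printed promoters were chosen with earlier results of these data known. Promoters span 250 bases before to 50 after the start on GRCh38.p14, while gene coordinates are those deposited, on hg19.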

Additional observations from a re-analysis of the deposited data

Results flagged for a closer look

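Entries of 3 gene copies or antisense neighbours, which are not members, had more counts in the TGF-beta library than in the untreated library, with counting intervals above equality. NDUFB2-AS1 (hg19 chr7:140395136-140396877, minus strand), which overlaps NDUFB2, had 62 counts against 10, a log2 ratio of 2.97 (1.99 to 4.10), while NDUFB2 had 0 against 27. SDHAP2, a copy of SDHA on chromosome 3, had 9 against 1, a log2 ratio of 3.51 (0.65 to 8.96), while SDHA had 3 against 10. COX4I1P1, a copy of COX4I1 on chromosome 14, had 23 against 13, a log2 ratio of 1.16 (0.12 to 2.26), in the same direction as COX4I1. Over all 142 pseudogene entries named after members, 70 counts stood against 158, and 31 entries had a count.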

How the results depend on the processing

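The number of members at least 2-fold lower ran from 35 of 43 (at least 20 CPM) to 50 of 68 (log2(CPM + 1), or 0 set to 1 count) over 12 alternatives, against 46 of 68. Alternatives with another filter count other sets of members. The median log2 ratio lay between -2.66 and -1.61, and the summed ratio of each complex kept its sign in each alternative run. That of complex II came nearest to equality, at -0.55 with pseudogene counts added, and no interval is given for it. With at least 20 CPM in 1 library the median was -2.66 and 0 of 43 members were 2-fold higher. Of all genes at that level, 36.0% were at least 2-fold lower and 18.5% higher. Among 64 members with counts in more than 1 exon region, 1 was higher. The complex I sum was -1.37 with DESeq2 size factors. Without the member with the most counts, the sums of complexes I, II and IV were -1.47, -2.10 and -3.69. Scaling by DESeq2 shifts each ratio by -0.22, by total counts by -0.16 and by the upper quartile by 0.08. All 116 ratios of the 29 named members under other scalings or without rounding moved by less than their counting interval. These are not 116 separate checks, because each scaling of the rounded counts shifts all ratios by the same amount. Without rounding the shifts differ, as in UQCRH (-2.30 to -2.51) and SDHA (-1.40 to -1.39). The interval of COX4I1 reached equality with DESeq2 size factors, and that of NDUFA11 lay above equality (0.04 to 1.05) with the upper quartile. No paired analysis was possible because each group has 1 library, and for the same reason no library could be left out. Depth limits members with under about 10 counts to large differences.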
